A study of Mus musculus with 8 samples.

Results

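Elastic microfibril genes were examined in hearts of newborn mice that lack connexin43 and in wildtype hearts. The genes were chosen by name, with earlier results of these data known. They are 9 genes of microfibrils, fibrillins, elastin and fibulins: Mfap2, Mfap4, Mfap5, Fbn1, Fbn2, Eln, Fbln1, Fbln2 and Fbln5. A probe with a single gene symbol was found for 5 of them, Eln, Fbn2, Mfap2, Mfap4 and Mfap5, and all 5 met the rule for a test, a value on 3 or more arrays per genotype. Fbn1, Fbln1, Fbln2 and Fbln5 were not analysed here. The 5 genes stand among 7603 named genes and 11804 features tested in all, a feature being a named gene or a probe without a single symbol.

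Both groups came from neonatal C57BL mice, connexin43 null or wildtype. Connexin43, the product of Gja1, forms gap junction channels between heart muscle cells, and mice without it die soon after birth with a malformed outflow tract of the right ventricle. Each of 8 two-colour arrays held Cy3-labelled cDNA from 3 pooled hearts, with 4 pools per genotype, and Cy5-labelled cDNA of 1 reference mixed from adult organs, aorta, lung and heart among them. The labels give no age in days and no sex for the neonatal hearts, and nothing on litters. Separate pools are the replicates, so single animals are not seen. Levels below are log2 ratios of heart over reference with each array's median set to 0. Dye bias stays in a level and cancels in a difference between genotypes.

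Elastic fibres give arteries, heart valves, lung and skin their recoil. Elastin is laid down on a scaffold of microfibrils, whose backbone is fibrillin, and lysyl oxidases then cross-link it. Small microfibril-associated glycoproteins sit on the fibrillin strands, and fibulins help to place elastin on the scaffold. Microfibrils also bind latent TGF-beta and related growth factors. In the developing heart these proteins are found in the outflow tract, the great arteries, the valves and the layer under the epicardium.

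Of the 8 arrays, wildtype replicate 1 stood apart before any gene was considered. It had a value at 12971 of 28704 spots, against 17879 to 23929 on the others, and its median rank correlation with the other arrays was 0.576, against 0.663 to 0.792. Differences of the elastic microfibril genes that rest on it are given with and without it. The ratio was read as heart over reference, a direction that the labels do not state and that is likely from 2 sets of genes. On every array the median of sarcomere genes, 0.80 to 1.16, lay above that of genes of other adult organs, -2.86 to -1.90. The deleted gene separated the groups, since Gja1 had -0.29, 0.25, 0.12 and 0.22 on the null arrays and 1.04, 1.31, 0.99 and 0.79 on the wildtype arrays. Its difference was -0.95 (SE 0.15), with p = 0.0286 in an exact two-sided permutation test, the smallest that 70 assignments allow, and adjusted p = 0.340 in limma. Whether its 1 probe covers the deleted sequence was not checked here.

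The comparison of genotypes asked whether transcripts of the elastic microfibril differ when connexin43 is absent. Transcripts of elastin, fibrillin-2 and the microfibril proteins Mfap2 and Mfap4, averaged on the log2 scale, were 1.34 to 1.59 times as high in null as in wildtype hearts. Mfap5 stood the other way, at 68.4% of the wildtype value. None of the 5 genes passed an adjusted p of 0.05 in limma, with adjusted p-values of 0.519 to 0.569. Over all features 0 passed, which is 0% called, so that no difference below is a called change. At an unadjusted p under 0.05 stood 4 of the 5 genes with a higher value, where 2.10% of all features did, and 1 with a lower value, where 6.13% did. That count depended on the processing: only Mfap2 was among the higher genes with array weights and without centring of the arrays, and only Mfap2 and Mfap4 after quantile normalization, with the arrays scaled to equal spread and without null replicate 3. It was 3 without null replicate 1 or wildtype replicate 1. Mfap5 was no longer under 0.05 with array weights, without null replicate 1 or without wildtype replicate 3. As the genes were chosen with earlier results of these data known, their counts beside all features are a description and not a test. In whole hearts, fewer cells of a type and less RNA per cell cannot be told apart.

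**Figure D1:**
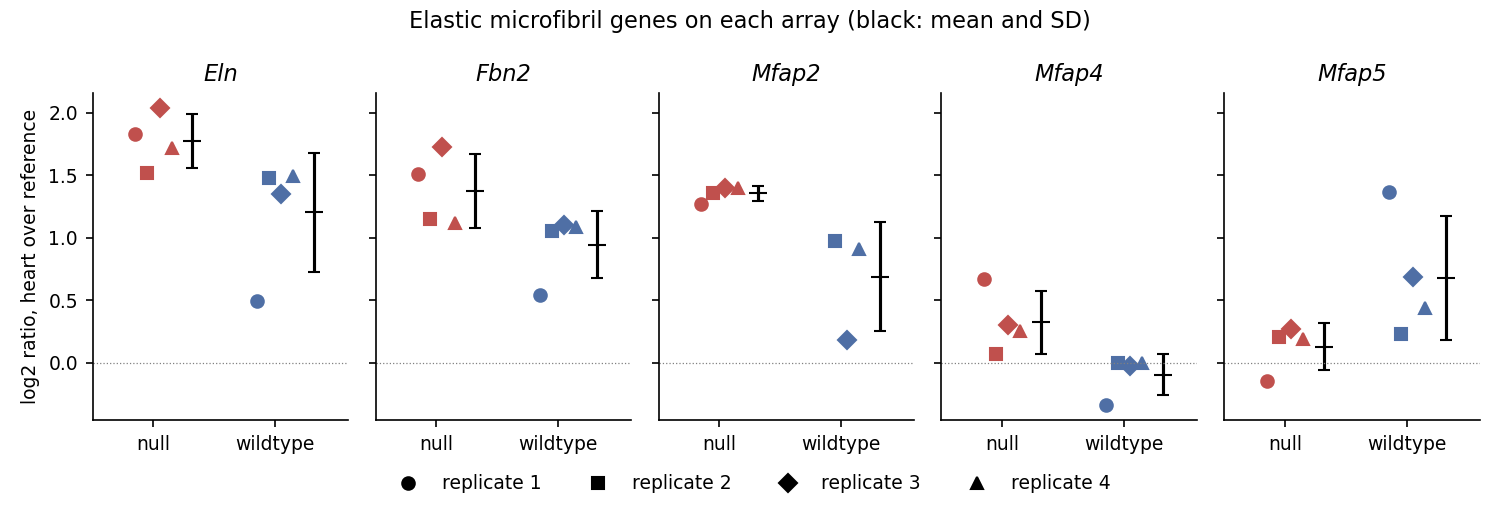
Log2 ratio of heart over reference (vertical axis) for 5 genes on each array, with null hearts in red and wildtype hearts in blue. Shapes mark the replicate number, and black bars give the mean and SD (n = 4, except n = 3 for wildtype Mfap2). Null values of Eln, Fbn2, Mfap2 and Mfap4 all lie above the wildtype values, while those of Mfap5 reach into the wildtype range.

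Eln encodes tropoelastin, the soluble subunit of the elastic core. It had log2 ratios of 1.83, 1.52, 2.04 and 1.72 in null hearts, against 0.50, 1.48, 1.35 and 1.49 in wildtype hearts. Every null value was above every wildtype value, but by a margin of only 0.03 on the log2 scale. The null mean was 1.78 ± 0.22 and the wildtype mean 1.20 ± 0.48 (SD, n = 4 each). The difference was 0.57 (SE 0.21, 95% interval 0.10 to 1.04), a 1.49-fold higher level, with adjusted p = 0.564 in limma. The low value of wildtype replicate 1 widened it: without that array the difference was 0.34, with adjusted p = 0.575. Limma's array weights left a difference of 0.27. They gave that array the lowest weight, 0.243, and null replicate 2, the lowest null pool of Eln, the highest, 3.55.

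Fbn2 encodes fibrillin-2, the fibrillin that is laid down mainly in embryonic and early postnatal tissue. It was represented by 4 probes, of which 2 had no value on any array. Of the other two, the first probe read 2.14, 1.79, 2.34 and 1.99 in null hearts, against 1.81, 1.84 and 1.77 on wildtype arrays 2 to 4 and no value on wildtype replicate 1. The second probe read 0.89, 0.50, 1.12 and 0.25 in null hearts, against -0.17, 0.30, 0.37 and 0.39 in wildtype hearts. On each probe alone the groups overlapped, through null replicate 2 on the first and null replicate 4 on the second.

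Combined over both probes by an additive model of probe and array, Fbn2 had 1.51, 1.15, 1.73 and 1.12 in null hearts, against 0.54, 1.05, 1.11 and 1.08 in wildtype hearts. The missing spot of wildtype replicate 1 enters this average only through the model, so that its value there rests on 1 probe. The averaged groups were 0.01 apart, with null replicates 2 and 4 just above the wildtype arrays and null replicates 1 and 3 well above them. The difference was 0.43 (SE 0.17, 95% interval 0.05 to 0.81), 1.35-fold, with adjusted p = 0.569 in limma. By probe it was 0.25 (SE 0.15) on the first and 0.47 (SE 0.20) on the second, and the average without wildtype replicate 1 gave 0.30. It was 0.26 after quantile normalization, 0.25 with the arrays scaled to equal spread, 0.18 with array weights and 0.61 as a plain mean of the probes. In the plain mean wildtype replicate 1 had only the second, lower-reading probe, and the difference exceeded that of either probe alone.

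Mfap2 encodes MAGP-1, a small glycoprotein of fibrillin microfibrils in most elastic tissues. It had 1.27, 1.36, 1.40 and 1.40 in null hearts, against 0.97, 0.18 and 0.91 on wildtype arrays 2 to 4, and no value on wildtype replicate 1. The null pools lay within 0.13 of each other, and the lowest of them was 0.30 above the highest wildtype pool, the widest gap of the 5 genes. The means were 1.36 ± 0.06 in null hearts (SD, n = 4) and 0.69 ± 0.44 in wildtype hearts (SD, n = 3). The difference, 0.67 (SE 0.18, 95% interval 0.26 to 1.08), was the largest of the 5, a 1.59-fold higher level with adjusted p = 0.519 in limma. Wildtype replicate 3, the low pool, carried part of it. Without that array the difference was 0.42, and without wildtype replicate 2 it was 0.81, in each case against 2 remaining wildtype pools.

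Mfap4 encodes a fibrinogen-related glycoprotein that binds both fibrillin and tropoelastin. Null hearts had 0.67, 0.07, 0.30 and 0.25, and wildtype hearts had -0.34, -0.01, -0.03 and -0.01. All null pools lay above 0, the median ratio of an array, and all wildtype pools below it, with 0.08 between the groups. The null mean was 0.32 ± 0.25 and the wildtype mean -0.10 ± 0.16 (SD, n = 4 each), a difference of 0.42 (SE 0.14, 95% interval 0.10 to 0.73) with adjusted p = 0.553 in limma. It was 0.34 without wildtype replicate 1, the lowest pool, and 0.30 without null replicate 1, the highest. Array weights gave 0.23, and without centring of the arrays it was 0.26, against a median of -0.18 for all features in that setting.

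Mfap5 encodes MAGP-2, the second microfibril-associated glycoprotein and a close relative of MAGP-1 in its matrix-binding region. It had -0.15, 0.20, 0.27 and 0.19 in null hearts, against 1.36, 0.23, 0.68 and 0.43 in wildtype hearts. Wildtype replicate 2 lay inside the null range, below null replicate 3, and wildtype replicate 1 far above all other arrays. The null mean was 0.13 ± 0.19 and the wildtype mean 0.68 ± 0.49 (SD, n = 4 each). The difference was -0.55 (SE 0.22, 95% interval -1.02 to -0.08), with adjusted p = 0.568 in limma, and -0.32 without wildtype replicate 1. After array weights it was -0.28, and without centring -0.71.

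**Figure D2:**
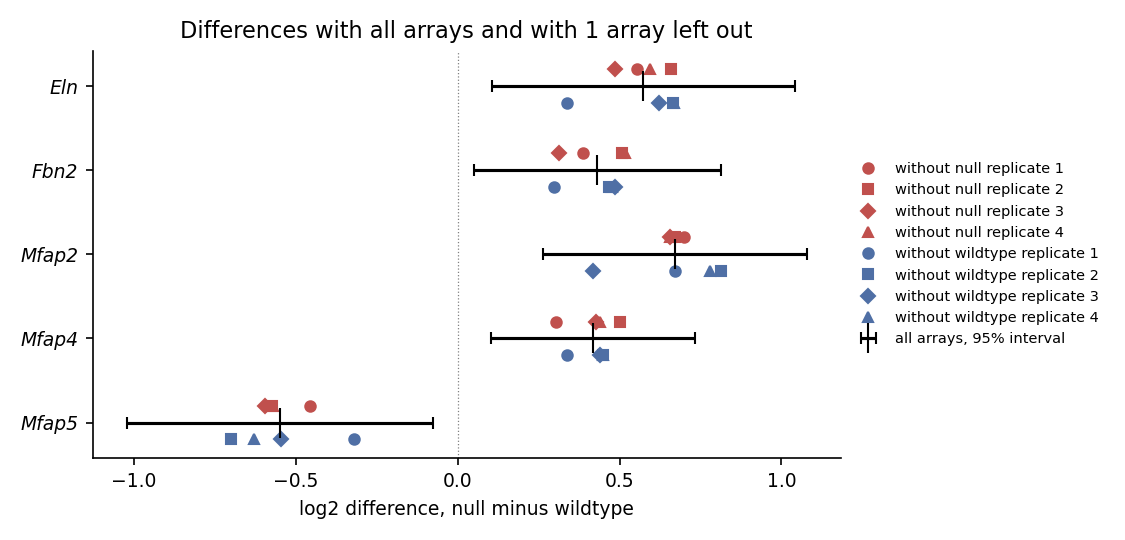
Log2 difference, null minus wildtype (horizontal axis), for each gene with all arrays (black line, 95% interval) and with 1 array left out (red above, null arrays; blue below, wildtype arrays). Leaving out wildtype replicate 1 brings Eln to 0.34 and Mfap5 to -0.32, and leaving out wildtype replicate 3 brings Mfap2 to 0.42. No point crosses 0.

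The same pools stood at the ends of their group for several of the 5 genes. Wildtype replicate 1 had the lowest wildtype value of Eln, Fbn2 and Mfap4 and the highest of Mfap5. Null replicate 3 had the highest value of Eln, Fbn2, Mfap2 and Mfap5 among the null pools. Null replicate 1 had the highest of Mfap4 and the lowest of Mfap2 and Mfap5. Null values lay wholly above wildtype values for 4 of the 5 genes, where 2.00% of all features did, and wholly below for 0, where 5.54% of all features did. For Eln and Fbn2 this order was lost with quantile normalization, with the arrays scaled to equal spread and without centring, and for Mfap4 without centring. Mfap2 kept it under all of these, but over 3 wildtype pools, as it had no value on wildtype replicate 1. Mfap5 had groups apart, with all null values lower, after quantile normalization, scaling to equal spread and centring within blocks of spots.

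Set among all features, 4 of the 5 genes had a difference above 0, where 40.9% of all features did. The median difference of the 5 genes was 0.43, against -0.04 for all features. A larger positive difference than that of Mfap2 was found for 0.186% of features, than that of Eln for 0.398%, than that of Fbn2 for 1.22% and than that of Mfap4 for 1.41%. A more negative difference than that of Mfap5 was found for 1.54%. These shares describe the size of a difference without its error, for genes chosen with earlier results of these data known.

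**Figure D3:**
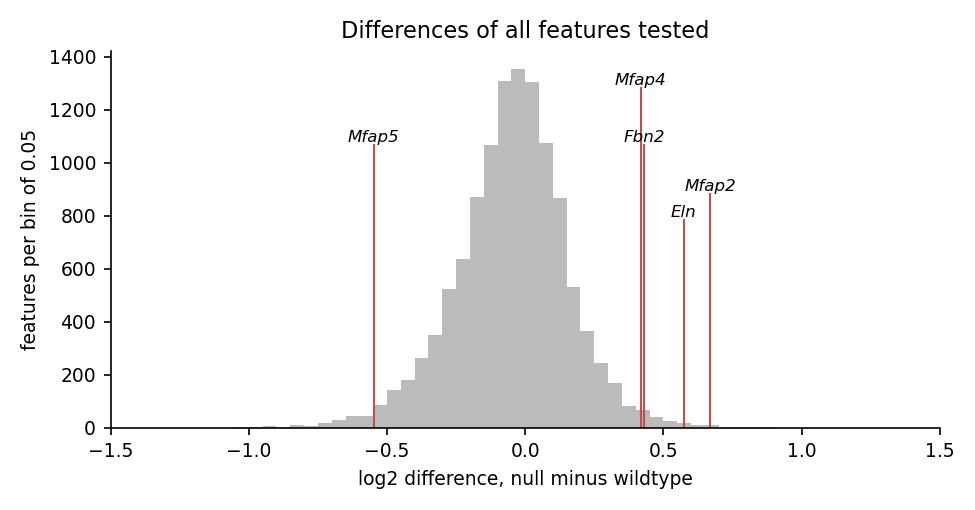
Number of features (vertical axis) by log2 difference, null minus wildtype (horizontal axis, bins of 0.05), for all 11804 features tested. Red lines mark Eln at 0.57, Fbn2 at 0.43, Mfap2 at 0.67, Mfap4 at 0.42 and Mfap5 at -0.55, all in the outer parts of the distribution.

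Levels against the adult reference are relative to the median ratio of an array, set to 0. Eln and the model average of Fbn2 were above 0 on all 8 arrays and Mfap2 on all 7 arrays with a value. Of all features, 19.1% were above 0 on every array measured. On wildtype replicate 1 the only Fbn2 probe with a value read -0.17, and the average above 0 there came from the model. Mfap5 was above 0 on 7 of 8 arrays and Mfap4 on 4 of 8. Eln and Fbn2 had mean log2 ratios of 1.78 and 1.38 in null hearts and 1.20 and 0.94 in wildtype hearts, so that both were richer in newborn heart than in the organ mixture when set against the median spot. Mfap4 lay near the median ratio, at 0.32 in null and -0.10 in wildtype hearts. Dye bias was not balanced in these levels, and they are given without a test.

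Other genes of the pathway were taken from a list of 64 arranged by role, of which 40 had a probe with a single symbol and 27 were tested. This list too was chosen with earlier results of these data known. In null hearts 20 of the 27 read higher, where 40.9% of all features did, and 7 lower. The 7 include Mfap1a, which was listed for its name and is not a gene of the elastic fibre. Their median difference was 0.08, and 0 passed an adjusted p of 0.05 in limma. Without wildtype replicate 1 the count of higher values was again 20. At an unadjusted p under 0.05 stood 3 with higher values, Loxl2, Fn1 and Emilin1, where 2.10% of all features did, and 0 with lower values, where 6.13% did. Emilin1, at 0.0469, was above 0.05 in several other settings, among them quantile normalization (0.115) and leaving out wildtype replicate 3 (0.174). Loxl2 had an unadjusted p of 0.215 in limma with only the probe of fewest missing values, and 0.195 with values on all arrays. For Fn1 it was 0.152 without centring, 0.0539 with the arrays scaled to equal spread and 0.0503 without null replicate 4. Without centring 7 of the 27 had higher values, as did 15.0% of all features, so that the count of 20 is relative to the other genes of an array.

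Among proteins that bind elastin or fibrillin directly, Emilin1, a glycoprotein at the border of elastin and microfibrils, had 0.76, 1.01, 0.82 and 0.77 in null hearts, against 0.53, 0.38 and 0.74 on wildtype arrays 2 to 4. The groups did not overlap, and the difference was 0.29 (SE 0.13, adjusted p = 0.594 in limma). Its relative Emilin2 had a difference of 0.27 (SE 0.15) with overlapping groups, and Emilin3 had -0.07 (SE 0.17). The Emilin3 value rested on single arrays, being -0.25 without null replicate 1, -0.12 without wildtype replicate 4, and -0.035 to -0.00012 without null replicate 2, 3 or 4 or wildtype replicate 3. Ltbp4, a latent TGF-beta binding protein needed for elastic fibre assembly, had 0.54, 0.45, 0.25 and 0.47 in null hearts, against 0.43, 0.16, 0.04 and 0.14 in wildtype hearts. Here wildtype replicate 1 lay among the null pools, and the difference was 0.23 (SE 0.12, adjusted p = 0.607 in limma). A second probe of Ltbp4, left out because it had values on only 2 wildtype arrays, stood the other way at -0.28, and with both probes Ltbp4 had 0.049. Adamts10 and Adamts17, metalloproteases known to bind fibrillin, had lower values, at -0.25 (SE 0.13) and -0.16 (SE 0.13). Without wildtype replicate 2 Adamts10 had -0.13, and without null replicate 3 Adamts17 had -0.079. The Adamts10 values of the null arrays, -0.39 to -0.19, lay below those of wildtype arrays 2 to 4, -0.13 to 0.23. Null values lay wholly below wildtype values for 5.54% of all features, and wholly above for 2.00%. A second probe of Adamts10, left out because it had a value on only 1 wildtype array, gave a difference of 0.03.

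The cross-linking enzymes Loxl2 and Loxl1 differed by 0.45 (SE 0.11) and 0.08 (SE 0.12), and the 2 probes of Loxl2 gave 0.74 and 0.17. Fn1, which encodes the fibronectin on which microfibrils assemble, had 0.45 (SE 0.15), and Tgfb2, a growth factor held in latent form on microfibrils, had 0.27 (SE 0.18), with 0.63, 0.03, 0.18 and 0.08 on its 4 probes. Tgfb2 had 0.12 without wildtype replicate 3 and 0.089 with array weights. Timp3, an inhibitor of matrix metalloproteases, had -0.23 (SE 0.14), which was -0.11 without wildtype replicate 1 and -0.066 with array weights, and the cathepsin gene Ctsl had -0.04 (SE 0.11). Mfap1a, at -0.05 (SE 0.11), shares a name with the microfibril genes but encodes a protein of the spliceosome. Mfap3 and Mfge8 had 0.10 (SE 0.10) and 0.09 (SE 0.10). The Mfap3 probes differed in sign, at -0.08, 0.06 and 0.37, and the last had no value on wildtype replicate 1. None of the genes in this paragraph passed in limma, where the lowest adjusted p was that of Loxl2, 0.483.

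**Figure D4:**
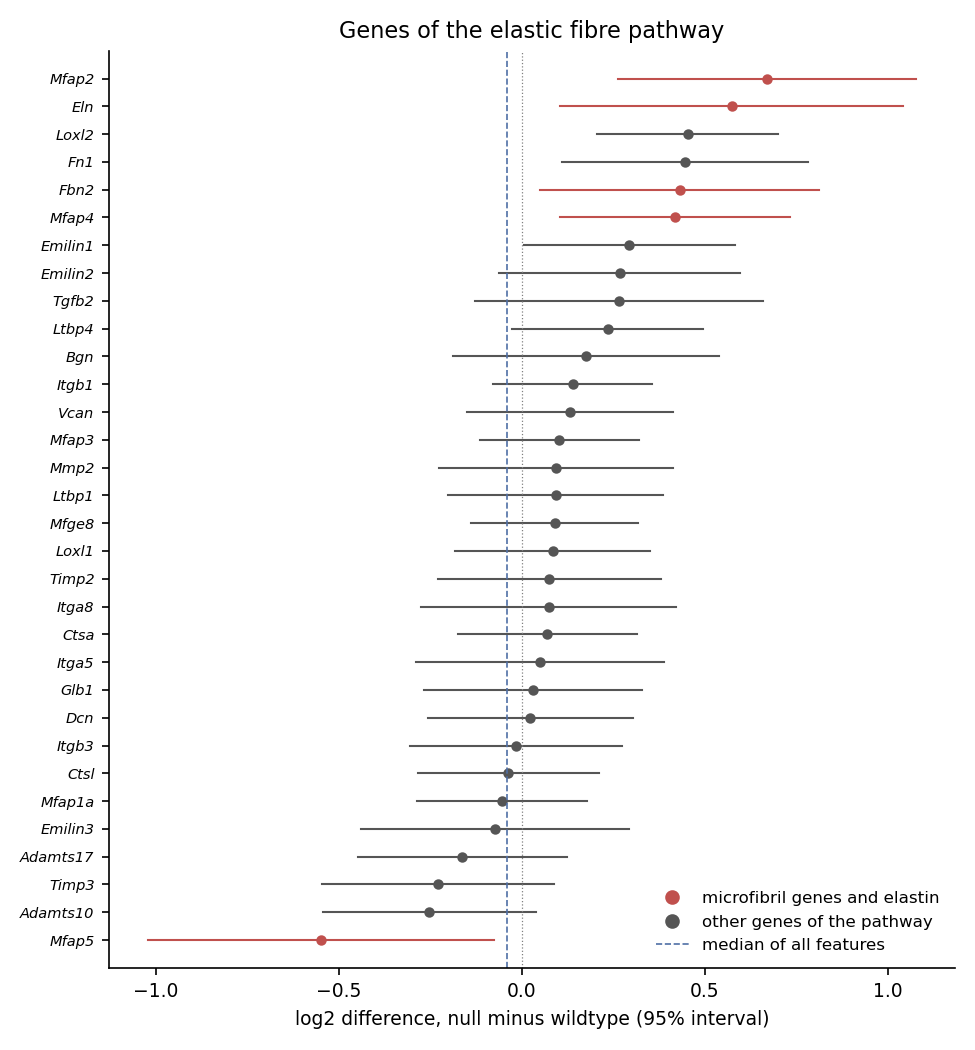
Log2 difference, null minus wildtype, with its 95% interval (horizontal axis) for the 5 microfibril and elastin genes (red) and the 27 other genes tested from the pathway list (grey). The dashed line marks the median of all features, -0.04. Mfap2 and Eln stand at the top, Mfap5 at the bottom, and the other genes run from Adamts10 at -0.25 to Loxl2 at 0.45.

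Cells that make microfibril proteins, fibroblasts and smooth muscle cells, were followed by their markers. Of 12 fibroblast markers 8 were tested, among them Dcn of the pathway list, and 7 of the 8 read higher in null hearts (median difference 0.13). Their mean log2 ratio ranged from 0.44 to 0.50 on the null arrays and from 0.21 to 0.48 on the wildtype arrays, with the lowest value on wildtype replicate 1. Of 9 smooth muscle markers 4 were tested, with 1 higher and 3 lower and a median of -0.02, and mean levels of -0.56 to -0.23 in null and -0.58 to -0.38 in wildtype hearts. The defining smooth muscle genes Acta2, Myh11 and Tagln were not among those tested. Of 10 endothelial markers 6 were tested, with 4 higher and a median of 0.11. Heart muscle markers, 3 of 11 tested, had a median of 0.12 with 2 higher, and the 2 of 7 epicardial markers tested had a median of -0.16 with 1 higher. Lung epithelium markers, 3 of 6 tested, all had lower values in null hearts. Their mean levels were -3.18 to -2.82, against -2.48 to -1.85 in wildtype hearts. Null values of each lay wholly below the wildtype values, as did those of 5.54% of all features. The part of these cell types in the differences of the microfibril genes was not tested.

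The genes most like Eln and Mfap5 in their pattern were sought among 5676 other named genes with a value on all 8 arrays, a condition that Mfap2 did not meet. For Eln these were Pxn, Hk1 and Ddx39a, with Pearson r of 0.989, 0.982 and 0.973 and Spearman rho of 0.929, 0.976 and 0.857. Without wildtype replicate 1 and null replicate 3, the arrays farthest from the median of Eln, r was 0.942, 0.892 and 0.798. For Mfap5 they were Cyhr1, Slc31a1 and Dohh, with r of 0.991, 0.987 and 0.980 and rho of 0.929, 0.738 and 0.833. Without wildtype replicates 1 and 3 r was 0.963, 0.898 and 0.966. These are the highest of many values over arrays that share 1 reference and 2 genotypes, and are given as a description with no p-value.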

How the data were processed

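Expression was measured on 2-colour cDNA arrays. The deposited values are log2 ratios per spot, a unit taken from the values themselves: differences between spots of a block matched the log of a ratio of small whole numbers, within 1.5e-09, 8347 times for log2, 863 times for log10 and 269 times for the natural log. What scanner, background correction, spot filter and scaling the authors used is not given in the sources used here. GEO's platform annotation, in which some symbols are out of date, gave 1 symbol for 18511 of 28704 probes, several for 937 (not used for names) and none for 9256.

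The median of each array was set to 0. A probe needed a value on 3 or more arrays per genotype, and probes of 1 symbol were combined by an additive model of probe and array. The genotypes were compared with lmFit and eBayes of limma 3.58.1 (R 4.3.3) over all 8 arrays, with Benjamini-Hochberg adjustment over 11804 features and a threshold of 0.05. The fit was tested on simulated data. Figures were drawn with matplotlib 3.10.9. Precision is limited by the number of arrays, and the median SE of a difference was 0.14. The labels number the pools 1 to 4 in both genotypes without naming a shared litter or day. With 1 array left out, the gene averages of all arrays were kept and 2 values per genotype sufficed.

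The members, lists and tests were chosen with earlier results of these data known. Genes named are all members, Gja1, up to 6 pathway genes per direction by p-value and the 3 genes most like Eln and Mfap5. Loxl1, Mfap3 and Mfge8 were added after their values were seen, to complete their groups. Alternatives were quantile normalization, no centring, centring within blocks, scaling to equal spread, values on all arrays or on at least 2 per genotype, other ways to combine probes, single probes, robust eBayes, array weights, a threshold of 0.1, each array left out and the replicate number as a block.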

Additional observations from a re-analysis of the deposited data

Results flagged for a closer look

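A single array far from the other 3 of its group, by Dixon's test, was found in 4 of the 31 complete groups examined. For a single group chance gives about 1 in 20. The groups share 8 arrays and their pathway genes were chosen by p-value, so the count cannot be set against that rate. In wildtype hearts, replicate 1 stood apart for Eln at 0.50, against 1.35 to 1.49 on the other arrays. It stood apart for Fbn2 at 0.54, a model average that rests there on 1 probe, against 1.05 to 1.11. For Mfap4 it read -0.34, against -0.03 to -0.01. This array also had the fewest spots with a value, 12971, and the lowest mean level of fibroblast markers, 0.21, and its part in the differences is shown by the values without it, 0.34 for Eln, 0.30 for Fbn2 and 0.34 for Mfap4. In null hearts, replicate 1 stood apart for Emilin3 at 0.43, against -0.33 to -0.24 on the other null arrays.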

How the results depend on the processing

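The 5 genes kept their direction under all alternatives that gave them a value, 18 for Mfap2 and 19 for each of the others, and none passed in limma in any of them (adjusted p 0.263 to 0.815). The lowest and highest differences were 0.27 and 0.67 for Eln, and 0.18 and 0.61, the plain mean of probes, for Fbn2. They were 0.42 and 0.81 for Mfap2, 0.23 and 0.50 for Mfap4 and -0.71 and -0.28 for Mfap5. Mfap2 had no value when all 8 arrays were required. No feature was called in any setting. Counts at an unadjusted p under 0.05 ran from 614 of 8078 features, with values on all arrays, to 1392 of 11804, without centring. The fit reported had 972 of 11804. Gja1 had -1.04 to -0.83 with 1 array left out. Among the 27 pathway genes the number with higher values was 18 to 21 with 1 array left out and 7 without centring. Mfap1a turned to 0.019 with array weights, and was -0.10 to 7.7e-05 with 1 array left out, the highest without wildtype replicate 1. Ctsl turned to 0.060 with array weights, and was -0.084 to 0.030 with 1 array left out, above 0 without null replicate 1 or wildtype replicate 1 (0.0024). The cause was not tested. With the replicate number as a block Eln had 0.57 and Mfap2 0.70, both with adjusted p = 0.787 in limma, and the count at an unadjusted p under 0.05 was 728. Same-numbered arrays correlated at -0.25 to -0.01 in their deviations, and 0 of 4 null arrays matched best with its own number. Over 4 pools per genotype no difference passed after adjustment in limma, not even that of Gja1, at -0.95 with an SE of 0.15.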
